A study of Mus musculus with 13 samples.

Results

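Messenger RNA levels are described here for 31 genes that carry glucose into the cell, convert it to pyruvate, exchange lactate and lead pyruvate into the mitochondrion, in mouse lung fibroblasts after injury and during lung regrowth. The genes were chosen by name for these roles: glucose transporters (Slc2a1, Slc2a3), hexokinases (Hk1, Hk2), the glucose phosphate isomerase Gpi1, phosphofructokinases (Pfkl, Pfkm, Pfkp) and the enzymes that set their activator fructose-2,6-bisphosphate (Pfkfb3, Pfkfb4), aldolases (Aldoa, Aldoc), the further glycolytic enzymes Tpi1, Gapdh, Pgk1, Pgam1, Eno1, Eno2 and Pkm, lactate dehydrogenases (Ldha, Ldhb), lactate carriers (Slc16a1, Slc16a3), pyruvate dehydrogenase kinases (Pdk1, Pdk2, Pdk4), pyruvate dehydrogenase subunits (Pdha1, Pdhb, Dlat) and the mitochondrial pyruvate carrier (Mpc1, Mpc2). Of the 43346 genes in the deposited table, all 31 were found. Of these, 29 reached at least 1 RPKM (reads per kilobase of gene, scaled to the depth of the library) in at least 2 libraries and were tested. Slc2a3 and Aldoc stayed under 1 RPKM in all 13 libraries and are described without a test.

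Glycolysis turns glucose into pyruvate in the cytosol. Lactate dehydrogenase then reduces pyruvate to lactate, which leaves the cell through monocarboxylate carriers, or the mitochondrial carrier imports it and pyruvate dehydrogenase turns it into acetyl-CoA, unless pyruvate dehydrogenase kinases have switched that complex off. Several steps are encoded by paralogs with different kinetics and regulation, so that the choice of paralog matters as well as the level of the step. Raised glycolysis has been described in the activated fibroblasts of fibrotic lung, and many of these genes are textbook targets of the hypoxia-inducible factors and of Myc.

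There were 2 sham libraries. Bleomycin, an agent whose lung injury ends in fibrosis, gave 3 libraries at day 14 and 5 libraries at day 30, and pneumonectomy, the surgical loss of a lung that sets off regrowth in the other, gave 3 libraries at day 14. The sham and bleomycin mice carried Col1a1-GFP, a reporter in which a type I collagen promoter drives green fluorescent protein, and were 8 weeks old. Their own labels name lung, and the series text calls the cells fibroblasts. All libraries started from 200 ng of RNA and a TruSeq v2 kit for mRNA. For sham and bleomycin 12 PCR cycles were run on RNA whose quality number was 6 or more. The pneumonectomy libraries are labelled as primary sorted lung fibroblasts, the series text names Col1a1-GFP for them too, and their RNA quality, PCR cycles and age in weeks are not stated, though the table's header calls the mice of all 4 groups young, so any difference in preparation and the effect of pneumonectomy cannot be told apart. The labels give no sorting gate, no sex, no dose of bleomycin and no statement of which operation or instillation the sham mice received. Nothing in them says that the libraries of a group came from separate mice, so p-values measure the spread between these libraries, which may be technical. The 3 pneumonectomy libraries carry no replicate number in the table and are called A, B and C.

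The depth behind the RPKM values, read from the size of their smallest steps, was about 67650000 to 200400000 reads per library, with the 5 day 30 libraries the deepest. At these depths 1 read in a gene of 2 kilobases was worth 0.00249 to 0.00739 RPKM, far below the tested members. Fibroblast markers were abundant in every library, with a summed level of 3048 to 4734 RPKM over 10 genes. Col1a1, Col1a2, Col3a1 and Dcn made up most of that sum in every library. At day 14 after bleomycin 5 of the 10 fell, 2 rose and 3 were not called (adjusted p at or above 0.05). Over all tested genes 29.9% fell and 33.4% rose. Dcn fell from a mean of 1619 to 139 RPKM, Lum from 150 to 37.3 RPKM and Tcf21 from 36.5 to 10.5 RPKM. Thy1 fell from 12.0 to 4.69 RPKM and Pdgfra from 64.5 to 36.9 RPKM. Xist, the RNA that coats the silenced X, ranged from 19.9 to 29.2 RPKM in the day 30 libraries, whose Ddx3y (a Y-linked gene) was listed at 0, and at 0.00448 to 0.0222 RPKM in the day 14 bleomycin and pneumonectomy libraries. Sham replicate 1 held both (Xist 15.9 and Ddx3y 2.14 RPKM), and in sham replicate 2 Ddx3y was at 11.4 RPKM beside a trace of Xist (0.0147 RPKM). Sex therefore cannot be told apart from day 30 in any comparison of that group, and sham replicate 1 is left out in turn below. Alveolar epithelial markers summed to 1252 RPKM in day 30 replicate 3 and to 5.03 to 92.9 RPKM in the other libraries.

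Promoters are shown for 5 genes that carry the results below: Hk2, Slc2a1 and Slc16a1, the transporters and hexokinase that were highest after pneumonectomy, and Ldha and Ldhb, the lactate dehydrogenase pair that moved in opposite directions after bleomycin. The sequences are the 250 bases before the start of transcription, 5′ to 3′ on the gene's own strand, from RefSeq on GRCm38.p6, and capitals mark ACGTG and GCGTG, the core letters of the hypoxia response element, on either strand (CACGT and CACGC are their reverse complements, and CACGTG, the E-box, holds ACGTG on both strands).
Hk2, chr6:82774455-82774704, minus strand: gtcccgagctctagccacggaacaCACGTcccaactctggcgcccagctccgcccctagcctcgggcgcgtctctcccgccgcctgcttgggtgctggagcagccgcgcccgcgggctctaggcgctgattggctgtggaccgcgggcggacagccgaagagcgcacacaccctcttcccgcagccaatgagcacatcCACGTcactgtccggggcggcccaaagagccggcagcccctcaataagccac
Slc2a1, chr4:119108495-119108744, plus strand: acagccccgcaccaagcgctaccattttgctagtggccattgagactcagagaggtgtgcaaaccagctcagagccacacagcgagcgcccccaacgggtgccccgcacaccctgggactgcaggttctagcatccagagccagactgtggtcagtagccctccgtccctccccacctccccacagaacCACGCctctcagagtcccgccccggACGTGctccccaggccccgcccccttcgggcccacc
Slc16a1, chr3:104638414-104638663, plus strand: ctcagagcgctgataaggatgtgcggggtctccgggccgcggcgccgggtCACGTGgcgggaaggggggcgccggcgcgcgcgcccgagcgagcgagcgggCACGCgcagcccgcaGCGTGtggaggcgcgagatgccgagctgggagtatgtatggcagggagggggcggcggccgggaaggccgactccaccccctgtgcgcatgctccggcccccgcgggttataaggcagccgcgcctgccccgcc
Ldha, chr7:46845554-46845803, plus strand: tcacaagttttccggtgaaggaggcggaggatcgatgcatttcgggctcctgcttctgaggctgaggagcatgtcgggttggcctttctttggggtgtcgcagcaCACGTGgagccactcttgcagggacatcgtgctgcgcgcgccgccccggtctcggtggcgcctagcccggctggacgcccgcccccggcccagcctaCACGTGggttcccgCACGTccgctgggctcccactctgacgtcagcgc
Ldhb, chr6:142507958-142508207, minus strand: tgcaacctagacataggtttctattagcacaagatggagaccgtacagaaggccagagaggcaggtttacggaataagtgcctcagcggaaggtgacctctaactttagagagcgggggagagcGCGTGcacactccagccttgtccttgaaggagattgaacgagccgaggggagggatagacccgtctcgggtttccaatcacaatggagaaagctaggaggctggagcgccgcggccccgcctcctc
The Ldha window shown is the upstream one of its 2 annotated starts and holds ACGTG 5 times in 3 places, counting both strands, 2 of these places being CACGTG. The other Ldha window, chr7:46846832-46847081, holds GCGTG in 1 place and neither ACGTG nor CACGTG. Hk2 holds ACGTG in 2 places, Slc2a1 holds ACGTG and GCGTG in 1 place each, Slc16a1 has matches in 3 places including a CACGTG, and Ldhb holds GCGTG in 1 place and no ACGTG. Of the 31 genes, 30 matched the promoter table, with 45 windows, of which 75.6% held either set of letters, against 38.6% of all 32851 windows of the table. ACGTG alone was in 35.6% of the windows of these genes and 16.6% of all windows, GCGTG in 53.3% and 28.2%, and CACGTG in 11.1% and 6.02%. Some windows of Aldoa, Eno1 and Pfkm overlap, so that a match they share is counted more than once. The windows of these genes and all windows were not matched for base content, so the difference in shares was not tested. These letter matches describe the windows and show no binding.

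The first comparison asked how the pathway changed 14 days after bleomycin. Of the 29 tested members, 17 rose, 7 fell and 5 were not called (adjusted p at or above 0.05), so that 82.8% were called where 63.3% of all 12938 tested genes were (33.4% higher and 29.9% lower). Over 2-fold, 9 members rose and 3 fell, where 22.1% of all genes passed 2-fold (11.9% higher and 10.1% lower). The rises over 2-fold included Pfkl, Ldha, Eno1, Pkm, Gapdh and Pgk1 of glycolysis, and Gpi1, Aldoa, Tpi1 and Pgam1 rose by less. Pfkp, Eno2 and Ldhb, paralogs of genes that rose, fell. Slc16a3 and Pdk1 rose, and Pdk4 and Pdk2 fell. Pdk1 reached 1 RPKM in the day 14 bleomycin libraries only, so it entered the tested set through the group where it is high and its call carries no weight in this count or in those of day 14 bleomycin against pneumonectomy and day 30. The median log2 change of the members was 0.44 against 0.02 over all genes. On the scale as deposited, which moved the median of all genes to 0.26, 19 members rose and 4 fell. Without sham replicate 1, 15 rose and 6 fell.

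The next comparison asked how the pathway changed 14 days after pneumonectomy. Here 13 members rose, 0 fell and 16 were not called, that is 44.8% called where 42% of all genes were (22.6% higher and 19.3% lower), a share near that of all genes. The largest changes were in transporters, hexokinase and the phosphofructokinase step: Hk2 rose 23.7-fold, Slc2a1 6.08-fold, Slc16a1 2.68-fold, Pfkfb3 2.10-fold and Pfkl 2.05-fold, and these 5 were all the members called at over 2-fold, where 9.81% of all genes passed 2-fold (7.64% higher and 2.16% lower). From aldolase to pyruvate kinase the 4 members called (Aldoa, Gapdh, Pgk1 and Pkm) rose by log2 changes of 0.27 to 0.53. The count fell to 8 on the scale as deposited, with 7 higher and 1 lower, where the median of all genes moved to -0.21. It was 7 without sham replicate 2, 9 without pneumonectomy library A and 11 without sham replicate 1. The same 7 held in each alternative: Slc2a1, Hk2, Pfkl, Pfkm, Pfkfb3, Ldha and Slc16a1.

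Set directly against each other at day 14, the 2 injuries differed in 25 of the 29 members, 13 higher after bleomycin and 12 higher after pneumonectomy, where 70.8% of all genes differed (36.2% higher and 34.6% lower after bleomycin). Over 2-fold, Eno1 and Pdk1 were higher after bleomycin, and Hk2, Slc2a1, Pfkfb3, Ldhb and Pdk4 were higher after pneumonectomy, where 23.2% of all genes passed 2-fold (9.65% higher and 13.6% lower after bleomycin). On the scale as deposited, which moved the median of all genes to 0.47, 18 were higher after bleomycin and 7 higher after pneumonectomy.

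**Figure D1:**
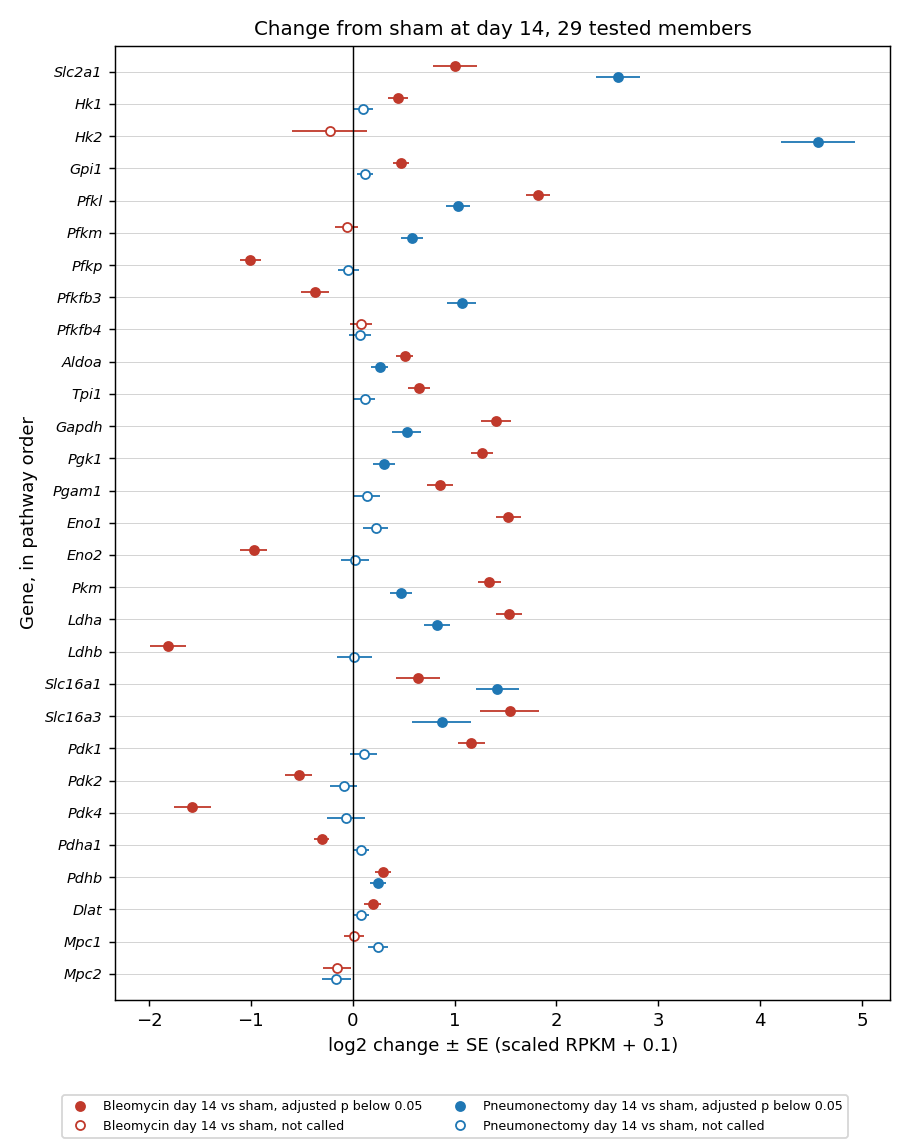
Log2 change from sham (horizontal axis, ± SE of the fit, on scaled RPKM + 0.1) at day 14 after bleomycin (red) and after pneumonectomy (blue) for the 29 tested genes in pathway order; filled points have an adjusted p below 0.05. Hk2 stood at 4.57 after pneumonectomy and -0.23 after bleomycin, while Ldhb stood at 0.02 and -1.81.

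In the accounts of single genes, levels are deposited RPKM per library, and log2 changes with their standard error come from the fit on RPKM scaled between libraries. The scaling factors were 0.964 and 0.966 in sham, 1.102 to 1.178 at day 14 after bleomycin, 1.04 to 1.07 at day 30 and 0.814 to 0.848 after pneumonectomy. Against sham, the scaling therefore lowers the log2 change after bleomycin and raises it after pneumonectomy, so that a fall after bleomycin is larger, and a rise smaller, than in the deposited levels.

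Glucose uptake and its trapping as glucose 6-phosphate differed most after pneumonectomy. Slc2a1, the widely expressed glucose transporter GLUT1 (chr4:119108711-119137983, plus strand), was at 3.93 and 2.39 RPKM in sham and at 19.0, 19.1 and 12.2 RPKM in pneumonectomy libraries A, B and C. It was at 7.71, 7.09 and 7.44 RPKM at day 14 after bleomycin and at 5.17, 5.79, 4.77, 5.30 and 5.58 RPKM at day 30. The 4 groups did not overlap. The change from sham was 2.60 ± 0.22 after pneumonectomy (adjusted p = 9.34e-06) and 1.01 ± 0.22 at day 14 after bleomycin (adjusted p = 0.00174), and bleomycin stood 1.60 ± 0.19 below pneumonectomy (adjusted p = 1.88e-05). The bleomycin change was 0.65 without sham replicate 2, the lower of the 2 sham libraries. Slc2a3, the transporter GLUT3 of neurons and some immune cells, was at 0.332 to 0.389 RPKM in sham and at day 14 after bleomycin, at 0.475 to 0.865 RPKM at day 30 and at 0.502 to 0.672 RPKM after pneumonectomy.

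Hk2, the inducible hexokinase (chr6:82725025-82774454, minus strand), was at 48.9, 52.1 and 29.1 RPKM in pneumonectomy libraries A, B and C and at 3.03 and 1.27 RPKM in sham. It was at 2.43, 1.62 and 1.97 RPKM at day 14 after bleomycin and at 3.30, 2.35, 1.86, 1.88 and 2.31 RPKM at day 30. The pneumonectomy libraries stood apart from all 10 others, which overlapped among themselves. The change from sham was 4.57 ± 0.37 (adjusted p = 7.41e-06), 5.17 without sham replicate 1 and 3.97 without sham replicate 2, and at day 14 pneumonectomy stood 27.8-fold above bleomycin (adjusted p = 2.79e-07). After bleomycin Hk2 was not called at day 14 (-0.23 ± 0.37, adjusted p = 0.608) or day 30 (0.09 ± 0.33, adjusted p = 0.86). Hk1, the constitutive hexokinase, showed the other pattern. It was at 3.49 and 3.24 RPKM in sham, rose to 4.88, 5.84 and 5.69 RPKM at day 14 after bleomycin (0.44 ± 0.10, adjusted p = 0.00177), and stood at 3.16 to 3.61 RPKM at day 30 and 2.75 to 3.65 RPKM after pneumonectomy, not called from sham in either.

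Gpi1, which interconverts glucose and fructose phosphates, rose at day 14 after bleomycin from 13.6 and 12.3 RPKM to 20.6, 21.1 and 22.3 RPKM (0.48 ± 0.08, adjusted p = 2.18e-04). It was at 12.5 to 15.04 RPKM at day 30 and 11.2 to 13.2 RPKM after pneumonectomy, both overlapping sham.

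**Figure D2:**
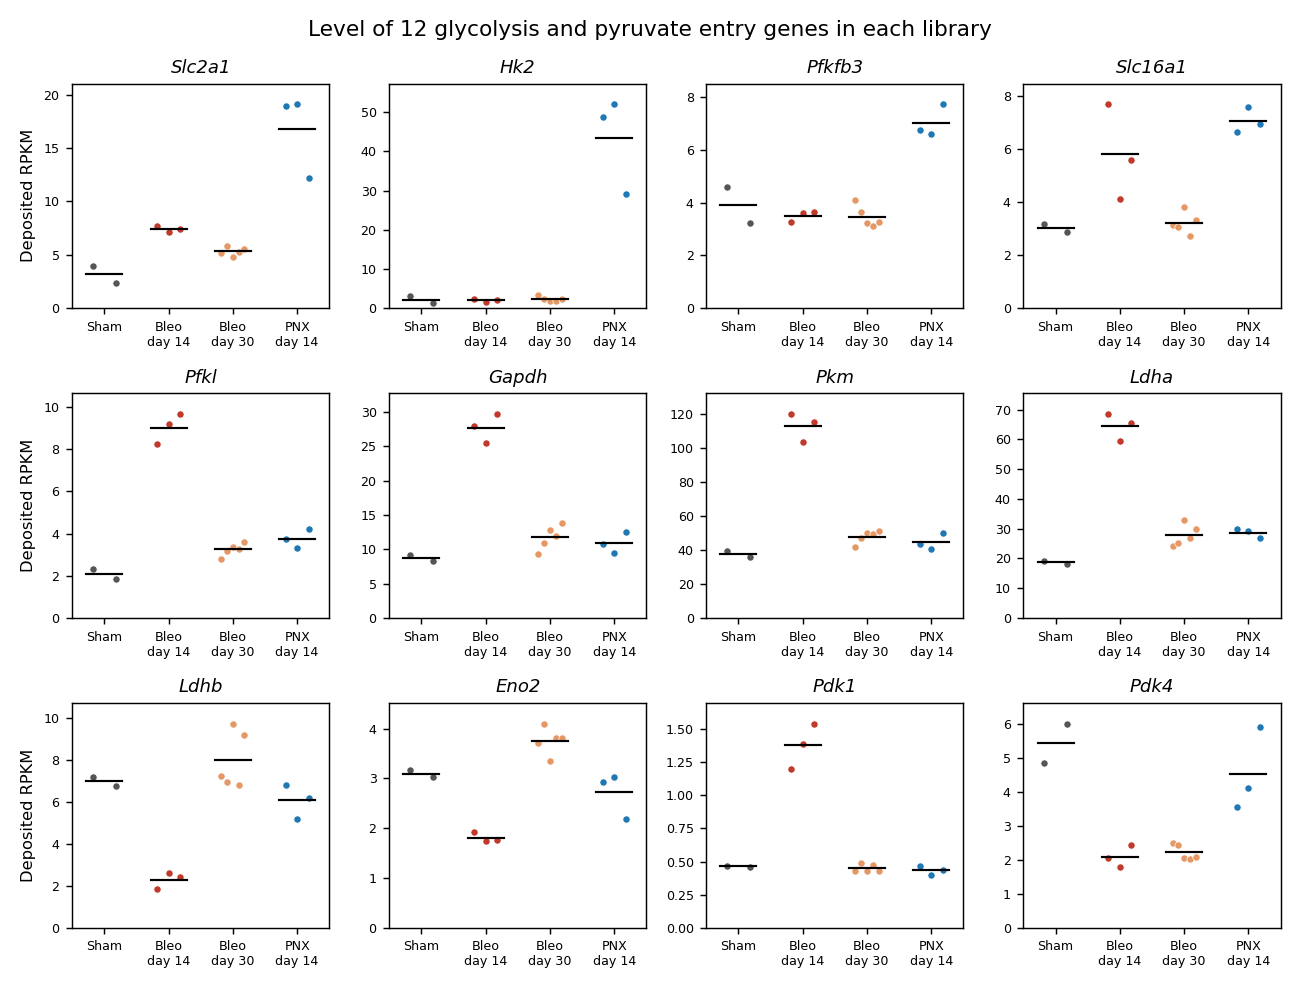
Deposited RPKM (vertical axes, from 0) of 12 genes in each of the 13 libraries, grouped as sham, bleomycin (Bleo) day 14 and day 30 and pneumonectomy (PNX) day 14; points are libraries and bars are group means. The top row holds the genes with the highest mean after pneumonectomy, such as Hk2 at 29.1 to 52.1 RPKM, and the middle row those highest at day 14 after bleomycin, such as Ldha at 59.6 to 68.6 RPKM.

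Phosphofructokinase commits sugar to glycolysis, and its 3 paralogs moved apart at day 14 after bleomycin. Pfkl, the liver-type subunit, was at 2.34 and 1.86 RPKM in sham and at 8.23, 9.18 and 9.68 RPKM at day 14 after bleomycin. It was at 2.79, 3.18, 3.39, 3.27 and 3.62 RPKM at day 30 and at 3.73, 3.33 and 4.24 RPKM after pneumonectomy, so that both of these groups lay between sham and day 14 bleomycin without touching either. The change from sham was 1.82 ± 0.12 at day 14 after bleomycin (adjusted p = 2.34e-07), 1.03 ± 0.12 after pneumonectomy (adjusted p = 5.97e-05) and 0.49 ± 0.11 at day 30 (adjusted p = 0.00622). Pfkp, the platelet-type subunit, went the other way, from 5.00 and 5.28 RPKM in sham to 2.70, 3.22 and 3.02 RPKM at day 14 after bleomycin (-1.01 ± 0.10, adjusted p = 6.09e-06). Pfkp was at 3.67 to 4.61 RPKM at day 30 (-0.45 ± 0.09, adjusted p = 0.00551) and at 4.03 to 4.73 RPKM after pneumonectomy, where it was not called. Pfkm, the muscle-type subunit, was called against sham after pneumonectomy, from 5.53 and 4.83 RPKM to 6.39, 6.14 and 7.59 RPKM (0.58 ± 0.11, adjusted p = 0.00159). Summed over the 3 paralogs, the step was at 12.9 and 12.0 RPKM in sham, 16.8 to 18.7 RPKM at day 14 after bleomycin, 11.5 to 13.6 RPKM at day 30 and 14.2 to 15.9 RPKM after pneumonectomy.

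Of the bifunctional enzymes that set fructose-2,6-bisphosphate, an allosteric activator of phosphofructokinase, Pfkfb3 differed between the 2 injuries (-1.44 ± 0.13 for bleomycin against pneumonectomy, adjusted p = 1.47e-06) and Pfkfb4 was not called (0.01, adjusted p = 0.917). Pfkfb3, whose kinase activity dominates, was at 4.57 and 3.23 RPKM in sham, 6.76, 6.60 and 7.73 RPKM after pneumonectomy and 3.28, 3.60 and 3.63 RPKM at day 14 after bleomycin. It rose after pneumonectomy by 1.07 ± 0.14 (adjusted p = 1.65e-04). The fall at day 14 after bleomycin (-0.37 ± 0.14, adjusted p = 0.0386) was lost in 8 alternatives, with -0.13 without sham replicate 1 and -0.62 without sham replicate 2. Pfkfb4 was at 1.52 and 1.41 RPKM in sham and 2.21, 2.34, 2.59, 2.68 and 2.52 RPKM at day 30, a rise of 0.60 ± 0.10 (adjusted p = 0.00133), and was not called at day 14 after either injury.

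Of the 8 tested genes from aldolase to pyruvate kinase, 7 rose at day 14 after bleomycin and Eno2 fell. Aldoa, the aldolase of most tissues and with Pkm the most abundant member in sham, went from 42.0 and 40.0 RPKM to 67.6, 68.2 and 71.8 RPKM, a change of 0.51 (adjusted p = 2.11e-04). Aldoc, the brain-type aldolase, was at 0.0227 to 0.461 RPKM over all libraries. Tpi1, which equilibrates the triose phosphates, went from 16.9 and 16.4 RPKM to 33.2, 28.5 and 31.6 RPKM (0.65, adjusted p = 2.08e-04). Gapdh, often used as a reference gene, was at 9.15 and 8.35 RPKM in sham and at 27.9, 25.4 and 29.7 RPKM at day 14 after bleomycin, a 2.65-fold rise on the scaled values (adjusted p = 6.21e-06). Pgk1, which makes ATP in the step that follows, went from 6.19 and 5.59 RPKM to 19.2, 14.98 and 16.9 RPKM (2.41-fold, adjusted p = 1.69e-06). Pgam1, the mutase after it, went from 4.86 and 4.87 RPKM to 11.4, 9.53 and 10.7 RPKM (0.85, adjusted p = 1.11e-04). In Aldoa, Tpi1, Gapdh, Pgk1 and Pgam1 every day 14 bleomycin library lay above both sham libraries. After pneumonectomy the same genes changed less from sham: Tpi1 at 13.8 to 18.0 RPKM and Pgam1 at 4.27 to 5.02 RPKM were not called. Aldoa (39.8 to 44.1 RPKM), Gapdh (9.42 to 12.5 RPKM) and Pgk1 (5.91 to 6.57 RPKM) rose by log2 changes of 0.27, 0.53 and 0.30. These 3 calls were lost on the scale as deposited and without sham replicate 2.

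Enolase split by paralog. Eno1, the form of most tissues, was at 4.36 and 3.73 RPKM in sham and 15.5, 12.4 and 14.2 RPKM at day 14 after bleomycin (1.53 ± 0.12, adjusted p = 1.02e-06). It was at 5.596, 5.72, 6.44, 5.93 and 6.78 RPKM at day 30 (0.46, adjusted p = 0.0114) and at 3.64 to 4.63 RPKM after pneumonectomy, which overlapped sham and was not called. Eno2, the neuronal form, fell from 3.16 and 3.02 RPKM to 1.93, 1.74 and 1.77 RPKM at day 14 after bleomycin (-0.97 ± 0.14, adjusted p = 6.84e-05) and stood at 3.35 to 4.10 RPKM at day 30. Pkm, pyruvate kinase of most tissues (chr9:59656368-59679375, plus strand), was at 39.1 and 35.9 RPKM in sham and at 119.9, 104 and 115 RPKM at day 14 after bleomycin (2.54-fold, adjusted p = 1.17e-06). It was at 41.6, 47.1, 49.7, 49.5 and 51.0 RPKM at day 30 and at 43.7, 40.8 and 49.8 RPKM after pneumonectomy. The pneumonectomy change of Pkm (0.47 ± 0.11, adjusted p = 0.00544) was not called on the scale as deposited (adjusted p = 0.08) or without sham replicate 2 (adjusted p = 0.0551). The splice forms PKM1 and PKM2 cannot be separated in a table of genes.

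Lactate dehydrogenase showed the widest split between paralogs after bleomycin. Ldha, the A subunit (chr7:46841475-46855627, plus strand), was at 19.3 and 18.2 RPKM in sham and at 68.6, 59.6 and 65.4 RPKM at day 14 after bleomycin. It was at 24.1, 25.1, 32.8, 27.0 and 29.96 RPKM at day 30 and at 29.7, 29.2 and 26.8 RPKM after pneumonectomy. Both of the latter groups lay above sham and below day 14 bleomycin. The change from sham was 1.53 ± 0.13 at day 14 after bleomycin (adjusted p = 1.35e-06), 0.83 ± 0.13 after pneumonectomy (adjusted p = 4.53e-04) and 0.44 at day 30 (adjusted p = 0.0172). Ldhb, the heart-type subunit (chr6:142490249-142507957, minus strand), fell from 7.20 and 6.78 RPKM in sham to 1.84, 2.61 and 2.45 RPKM at day 14 after bleomycin, 3.51-fold lower (-1.81 ± 0.17, adjusted p = 3.71e-06). At day 30 Ldhb was at 7.27, 6.95, 9.75, 6.82 and 9.19 RPKM and after pneumonectomy at 6.84, 5.22 and 6.22 RPKM, in both cases overlapping sham and not called.

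Of the lactate carriers, Slc16a1 rose after pneumonectomy and Slc16a3 after bleomycin in every alternative, and their other calls were less stable. Slc16a1, the carrier MCT1 (chr3:104638668-104658462, plus strand), was at 3.18 and 2.87 RPKM in sham, 6.65, 7.59 and 6.96 RPKM after pneumonectomy and 7.71, 4.13 and 5.59 RPKM at day 14 after bleomycin. The change was 1.42 ± 0.21 after pneumonectomy (adjusted p = 3.95e-04) and 0.64 ± 0.21 after bleomycin (adjusted p = 0.0214). The bleomycin value spread widely over its 3 libraries, was 0.39 without replicate 1, and lost its call with the compared groups alone (adjusted p = 0.124) and without either sham library (adjusted p = 0.0521 and 0.113). Slc16a3, the lactate exporter MCT4, was at 1.28 and 0.486 RPKM in sham, 2.78, 3.47 and 2.73 RPKM at day 14 after bleomycin, 2.36, 2.00, 1.45, 2.31 and 2.10 RPKM at day 30, and 1.27, 1.37 and 1.33 RPKM after pneumonectomy. Its bleomycin change of 1.54 ± 0.29 (adjusted p = 6.94e-04) was 0.92 without sham replicate 2 and 2.16 without sham replicate 1, called in both. The pneumonectomy call (0.87 ± 0.29, adjusted p = 0.0315) was lost in 8 of 10 alternatives, among them leaving out each pneumonectomy library, and the change was 0.25 without sham replicate 2 (adjusted p = 0.432) and 1.498 without sham replicate 1.

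Of the genes that gate pyruvate entry, the kinases moved most. Pdk1, a kinase that inhibits pyruvate dehydrogenase, was at 0.466 and 0.459 RPKM in sham and 1.202, 1.39 and 1.54 RPKM at day 14 after bleomycin, a log2 difference of 1.16 ± 0.13 that is given without a test because this group alone brought Pdk1 into the tested set. It was at 0.427 to 0.490 RPKM at day 30 and at 0.399 to 0.466 RPKM after pneumonectomy, overlapping sham in both. Pdk4, the kinase known for its rise in fasting and for FoxO control (chr6:5483351-5496309, minus strand), was at 4.86 and 6.00 RPKM in sham and at 2.05, 1.80 and 2.42 RPKM at day 14 after bleomycin (-1.57 ± 0.18, adjusted p = 1.83e-05). Unlike Pdk1 it stayed low at day 30, at 2.48, 2.44, 2.04, 2.03 and 2.09 RPKM (-1.37 ± 0.17, adjusted p = 3.1e-04). After pneumonectomy it was at 3.56, 4.10 and 5.90 RPKM and was not called. Pdk2 was at 3.96 and 3.58 RPKM in sham, 3.01, 3.10 and 3.05 RPKM at day 14 after bleomycin (-0.53, adjusted p = 0.00424) and 3.99 to 4.87 RPKM at day 30, and its fall was lost on the scale as deposited (-0.30, adjusted p = 0.0877). Summed over the 3 kinases, the level was 9.28 and 10.0 RPKM in sham, 6.25 to 7.01 RPKM at day 14 and 6.77 to 7.59 RPKM at day 30 after bleomycin, and 6.99, 6.95 and 10.2 RPKM after pneumonectomy. The fourth kinase, Pdk3, was outside the 31 genes and rose at day 14 after bleomycin, from 1.66 and 1.64 RPKM to 4.24, 3.36 and 3.39 RPKM (0.86 ± 0.14, adjusted p = 2.44e-04). With it the sum was 10.9 and 11.7 RPKM in sham and 10.5, 9.64 and 10.4 RPKM at day 14. It was 8.89 to 10.1 RPKM at day 30 and 9.02, 9.30 and 12.5 RPKM after pneumonectomy. On these deposited levels day 14 lay closer to sham with Pdk3 than without it. The sums were not scaled between libraries, and scaling would lower day 14 against sham.

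The catalytic subunits and the pyruvate carrier moved little. Pdha1, a catalytic subunit of pyruvate dehydrogenase, lay between 15.7 and 18.3 RPKM in all 13 libraries. Its call at day 14 after bleomycin (-0.30, adjusted p = 0.00396) was lost on the scale as deposited (-0.06). Pdhb, its partner, rose at day 14 after bleomycin from 10.3 and 10.0 RPKM to 14.1, 15.6 and 14.8 RPKM (0.30, adjusted p = 0.00519), and Dlat, the acetyl transferase of the complex, from 3.52 and 3.57 RPKM to 5.06, 4.44 and 4.99 RPKM (0.20, adjusted p = 0.0492, lost in 8 alternatives). After pneumonectomy, where Pdhb was at 9.70 to 11.1 RPKM, its call (adjusted p = 0.024) was lost in 7 alternatives. Mpc1, of the mitochondrial pyruvate carrier, was at 2.37 and 2.10 RPKM in sham and 2.96 to 3.59 RPKM at day 30, a rise of 0.40 (adjusted p = 0.00757), and Mpc2 was at 0.805 to 1.67 RPKM over all libraries and was called in no comparison with sham.

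**Figure D3:**
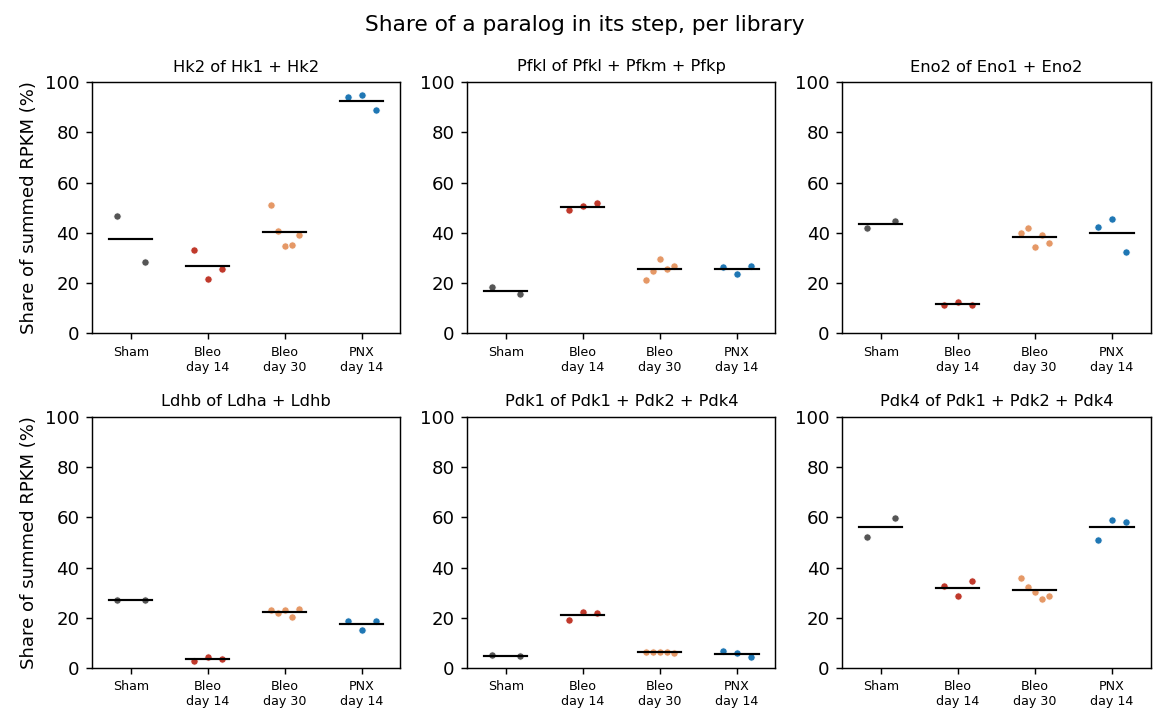
Share of a paralog in the summed RPKM of its step (vertical axis, percent) in each of the 13 libraries, with the group mean as a bar. Pfkl and Pdk1 took larger shares at day 14 after bleomycin and Eno2 and Ldhb smaller ones, whereas Hk2 made up 88.8% to 95.0% of hexokinase after pneumonectomy.

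The share of a paralog within a library does not depend on the scaling between libraries, and it set the groups apart in several steps. Hk2 made up 94.3%, 95.0% and 88.8% of hexokinase RPKM after pneumonectomy, 46.5% and 28.2% in sham, and 33.2%, 21.7% and 25.7% at day 14 after bleomycin. Pfkl made up 49.0%, 50.6% and 51.8% of phosphofructokinase at day 14 after bleomycin, against 18.2% and 15.5% in sham. Ldhb went from 27.2% in both sham libraries to 2.62%, 4.20% and 3.61% of lactate dehydrogenase at day 14 after bleomycin. Eno2 went from 42.0% and 44.8% of enolase to 11.0%, 12.3% and 11.1%, and Pdk1 from 5.03% and 4.58% of the 3 kinases to 19.2%, 22.1% and 21.99%. In the shares of Pfkl, Ldhb, Eno2 and Pdk1 the day 14 bleomycin libraries lay outside the range of every other group, whereas in Hk2 they overlapped sham. At day 30 the shares of Ldhb (20.1% to 23.5%), Eno2 (34.2% to 41.7%), Pfkl (21.3% to 29.4%) and Pdk1 (5.88% to 6.46%) lay nearer to sham. Others did not. Pfkfb4 had means of 27.6% in sham, 34.5% at day 14 and 41.7% at day 30, and Slc16a3 of 21.6%, 35.0% and 38.9%. Pdk4 stayed below sham, with 52.4% and 59.7% in sham, 28.6% to 34.5% at day 14 and 27.5% to 35.9% at day 30, and Pdk2 took 57.9% to 66.1% at day 30 against 42.6% and 35.7% in sham. With Pdk3 in the sum, Pdk1 made up 4.26% and 3.93% in sham and 11.5%, 14.4% and 14.8% at day 14, and Pdk4 44.4% and 51.4% in sham, 18.6% to 23.3% at day 14 and 20.3% to 27.9% at day 30. Tested between day 30 and day 14 with a two-sided exact permutation test, 9 of 13 shares reached the smallest p the design allows (0.0357), and none was below 0.05 after adjustment over the 13 (0.0516). These 9 are not independent, because the shares of a step sum to the whole. They include Pfkl, Pfkm and Pfkp of phosphofructokinase and Pdk1 and Pdk2 of the kinases.

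Markers of other cells moved with the comparisons above. At day 14 after bleomycin, where 33.4% of all genes rose, 11 of 12 endothelial markers did, with a summed level of 366 to 691 RPKM against 39.4 and 41.9 RPKM in sham, as did 11 of 13 macrophage markers (165 to 546 RPKM against 33.0 and 40.8 RPKM) and all 8 markers of dividing cells (30.3 to 38.0 RPKM against 0.973 and 1.43 RPKM). Of these, 7 dividing cell markers and the endothelial Emcn had entered the tested set through that group alone. No marker of these 3 lists was at 0 in any library, and their part in the changes of the glycolytic genes was not tested. Granulocyte markers summed to 25.1 to 36.2 RPKM against 13.8 and 1.08 RPKM in sham. In bulk RNA, more cells of a type and more RNA per cell cannot be told apart. Among the 3 day 14 bleomycin libraries, replicate 1 had the lowest endothelial (366 RPKM) and macrophage (165 RPKM) sums. Its sum of dividing cell markers (38.0 RPKM) was the highest. Before and after scaling it also had the highest Ldha, Pkm, Pgk1, Pgam1, Tpi1, Eno1 and Slc16a1 and the lowest Hk1, Pfkl and Pdk1. Gpi1, Aldoa and Pdhb were lowest in it as deposited but not after scaling. From day 14 to day 30, 1 of 13 macrophage markers rose, 3 fell and 9 were not called. Over all tested genes 28.9% rose and 30.7% fell. The macrophage sums, mostly Lyz2 at both bleomycin times, were 239 to 782 RPKM at day 30.

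**Figure D4:**
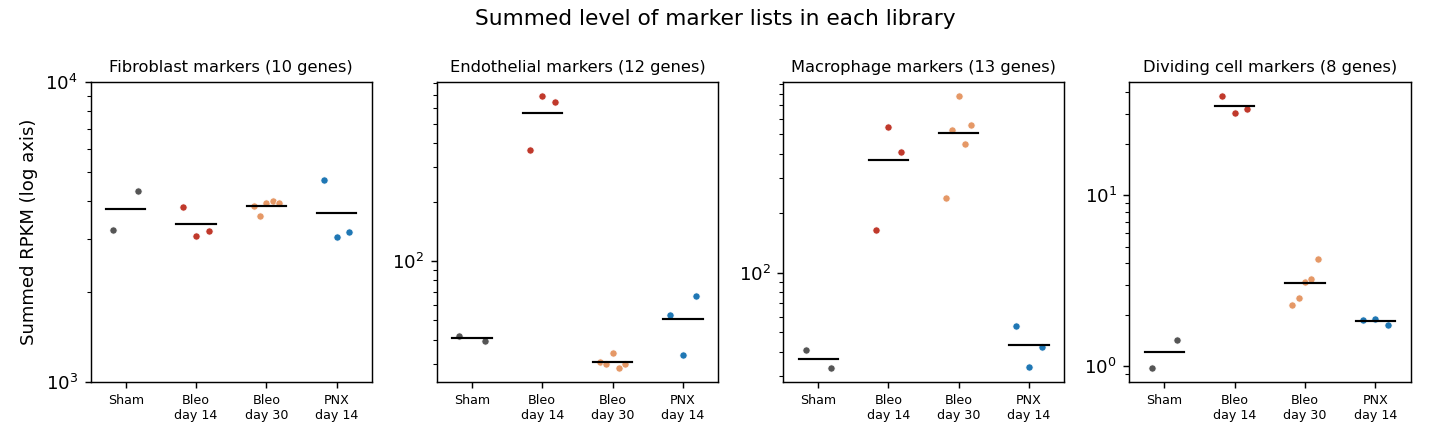
Summed RPKM (vertical, log axis) of 10 fibroblast, 12 endothelial, 13 macrophage and 8 dividing cell markers in each library, with the group mean as a bar. Endothelial and dividing cell sums were highest at day 14 after bleomycin, and macrophage sums were high at both bleomycin times.

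After pneumonectomy, where 22.6% of all genes rose and 19.3% fell, 10 of 12 endothelial markers rose and 1 (Tek) fell, with sums of 53.1, 33.5 and 66.2 RPKM in libraries A, B and C. Library B had the lowest of these sums and the highest Hk2 and Slc2a1. Its sum was below both sham libraries through Tek (4.15 against 15.5 and 15.9 RPKM) and Eng (11.9 against 14.7 and 16.5 RPKM), and the other 10 markers, such as Cdh5 (2.10 against 1.39 and 0.607 RPKM), were above both. Of 8 smooth muscle and pericyte markers 6 rose, with sums of 815, 826 and 1150 RPKM against 834 and 414 RPKM in sham, and library C, with the highest sum, had the lowest Hk2 and Slc2a1. Alveolar epithelial sums were 38.9 to 92.9 RPKM against 5.03 and 15.9 RPKM in sham. The part of these cells in the Hk2 and Slc2a1 levels was not tested.

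By day 30 after bleomycin 20 of the 29 tested members were not called against sham. From day 14 to day 30, 15 members fell, 7 rose and 7 were not called, where 59.6% of all genes changed (28.9% higher and 30.7% lower). The 7 genes lower by over 2-fold were Pfkl, Gapdh, Pgk1, Eno1, Pkm, Ldha and Pdk1, and those that rose over 2-fold were Ldhb (3.65-fold, adjusted p = 5.76e-07) and Eno2 (2.18-fold, adjusted p = 4.11e-06), where 14.5% of all genes passed 2-fold (7.48% higher and 7.05% lower). Ldha fell by 1.09 and Pkm by 1.11 on the log2 scale. Against sham, 7 members were higher at day 30 (Slc2a1, Pfkl, Pfkfb4, Eno1, Ldha, Slc16a3 and Mpc1) and 2 lower (Pfkp and Pdk4), 9 of 29, where 28.8% of all genes were called (14.8% higher and 14.1% lower), a share near that of all genes. Over 2-fold, Slc16a3 was higher (2.18-fold) and Pdk4 lower (2.58-fold), where 6.18% of all genes passed 2-fold (4.7% higher and 1.48% lower). Pdk4 alone kept its call in every alternative. The count was 3 without sham replicate 2, where Slc2a1 was at 0.30 and Slc16a3 at 0.50, and 8 without sham replicate 1. Without day 30 replicate 3, the library with the epithelial markers, it was 9. On the scale as deposited it was 13, with 11 higher and 2 lower. There 31.4% of all genes were called and their median moved to 0.11. The calls added were Gapdh, Pgk1, Pgam1 and Pkm. At day 30 Tpi1 was at 18.6 to 21.2 RPKM and Gapdh at 9.33 to 13.8 RPKM. Pgk1 was at 7.14 to 8.17 RPKM and Pgam1 at 5.21 to 7.37 RPKM. In each of these the day 30 libraries lay above both sham libraries. Pgk1 and Pdha1 lie on the X chromosome, and 11 of 13 macrophage markers and 7 of 8 dividing cell markers were higher at day 30 than in sham. The part of these cells was not tested.

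**Figure D5:**
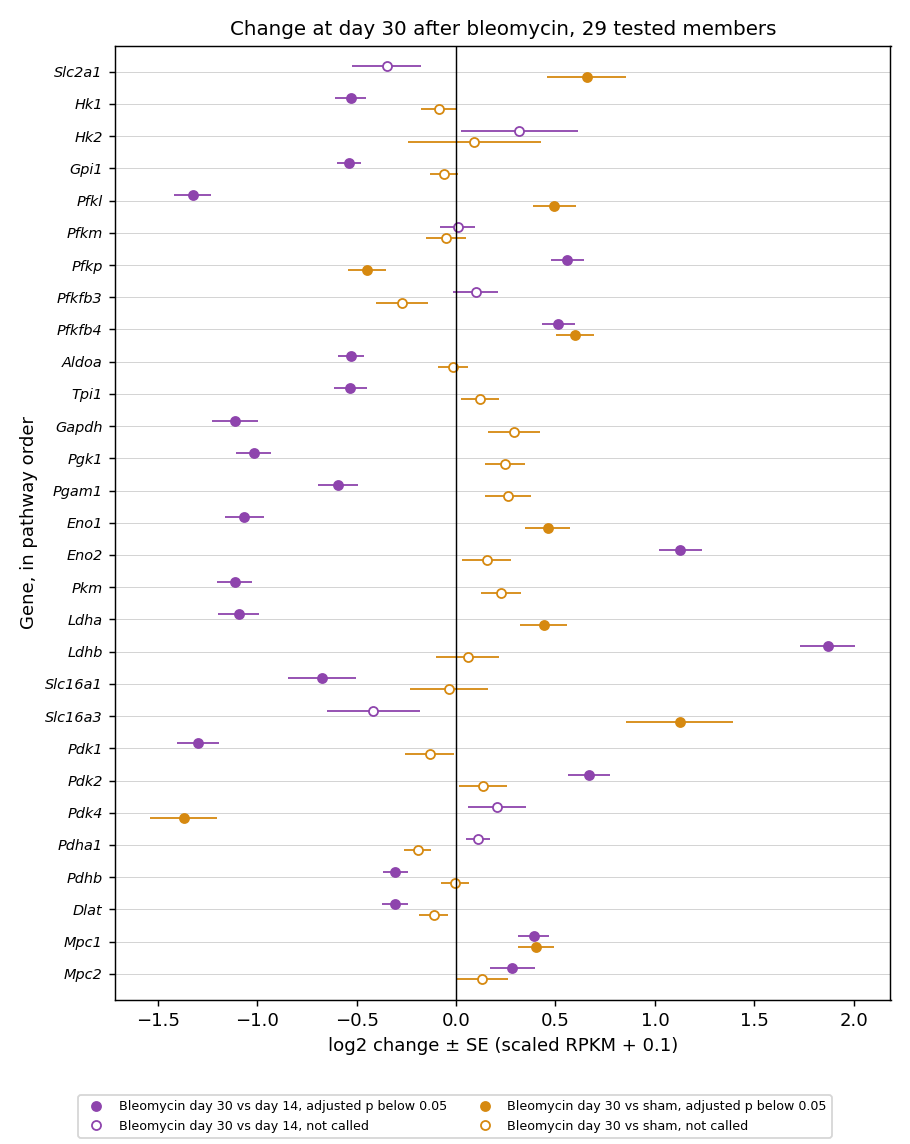
Log2 change (horizontal axis, ± SE of the fit, on scaled RPKM + 0.1) of the 29 tested genes at day 30 after bleomycin against day 14 (purple) and against sham (orange); filled points have an adjusted p below 0.05. Ldhb and Eno2 rose from day 14 by 1.87 and 1.13, and Pdk4 stood at -1.37 against sham and 0.20 against day 14.

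Several of these genes share sequence with other gene records, and how the authors counted such reads is not given in the sources used here. In the GENCODE M21 annotation of mm10, 53.9% of the 50-base stretches of Pgk1 also occur in another gene, nearly all in the retrogene Pgk1-rs7. The share was 36.2% in Pgam1, 26.3% in Mpc1, 26.0% in Eno1 (mostly Eno1b), 25.8% in Pkm, 25.1% in Gapdh, 21.0% in Ldhb and 15.8% in Gpi1. The levels of these genes are therefore uncertain. These shares are of sequence, not of reads, so how far the levels are affected is not known. It was 0 in Hk2, Slc16a1, Slc16a3, Pdk1, Pdk2 and Dlat and 1.54% in Slc2a1. Genes on the opposite strand overlap 23.1% of the exon length of Mpc1, 16.1% of Pdha1 and 11.5% of Gpi1, and the kit named in the labels does not mark strand.

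Neighbouring pathways were read from lists chosen in the same way, and their counts stand beside 63.3% of all genes called at day 14 after bleomycin and 42% after pneumonectomy. Of 21 tested genes of glycogen and other sugar handling, 9 rose and 7 fell at day 14 after bleomycin and 8 rose and 3 fell after pneumonectomy (76.2% and 52.4% called). Bpgm, which makes 2,3-bisphosphoglycerate, rose from 0.972 ± 0.0376 RPKM in sham (SD, n = 2) to 10.7 ± 1.77 RPKM at day 14 after bleomycin (SD, n = 3). Red cells hold much Bpgm, and the erythroid markers summed to 12.1 to 15.8 RPKM in that group against 1.18 and 6.26 RPKM in sham. At day 30 Bpgm was at 3.55 to 6.64 RPKM and the erythroid sums at 1.12 to 3.33 RPKM. The part of red cells in the Bpgm levels was not tested. Gyg, the primer of glycogen, rose after both injuries, from 8.89 ± 0.214 RPKM to 36.8 ± 3.52 RPKM after bleomycin and 29.9 ± 3.73 RPKM after pneumonectomy (log2 changes 1.79 ± 0.20 and 1.95 ± 0.20). Pygm, a glycogen phosphorylase, and the phosphoglucomutase Pgm1 rose after pneumonectomy by 1.31 ± 0.12 and 1.13 ± 0.12. Galm, Ugp2 and Pygb fell at day 14 after bleomycin by 1.59, 1.34 and 1.30 on the log2 scale.

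Of 15 other pyruvate and lactate genes, 7 rose and 6 fell at day 14 after bleomycin and 5 rose and 2 fell after pneumonectomy (86.7% and 46.7% called). Emb, a chaperone of lactate carriers, rose after bleomycin by 2.06 ± 0.54 and after pneumonectomy by 1.44 ± 0.54. Slc16a7, the carrier MCT2, fell after bleomycin from 1.38 ± 0.108 RPKM to 0.286 ± 0.105 RPKM (-2.17 ± 0.23). Of 17 genes of the tricarboxylic acid cycle, 9 rose and 1 fell after bleomycin, led by Mdh2 (0.76 ± 0.10), and 4 rose after pneumonectomy (58.8% and 23.5% called, both below the share of all genes). Of 7 pentose phosphate genes, 3 rose and 1 fell after bleomycin, whereas 0 rose and 2 fell (G6pdx and Pgd) after pneumonectomy (57.1% and 28.6% called). The serine and one-carbon list, which branches off glycolysis at 3-phosphoglycerate, had 6 of 8 tested genes higher and 0 lower after bleomycin, led by Psat1 (1.73 ± 0.25) and Mthfd2 (1.71 ± 0.16). After pneumonectomy 1 of these 8 rose and 2 fell, among them Phgdh, the entry enzyme of the branch (-0.78 ± 0.21), so that 6 and 3 of the 8 were called. Psph of this list had entered the tested set through day 14 bleomycin alone.

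Known regulators were read in the same way. Of 19 hypoxia factors and targets, 5 rose and 7 fell at day 14 after bleomycin, and 7 rose and 3 fell after pneumonectomy (63.2% and 52.6% called, the first near the share of all genes). Hif1a, which encodes a hypoxia-inducible factor, was at 6.90 ± 0.386 RPKM in sham, 16.0 ± 0.895 RPKM after bleomycin and 13.4 ± 1.15 RPKM after pneumonectomy, and rose in both. Epas1, the related factor HIF2A that endothelium expresses strongly, rose after bleomycin from 10.8 ± 4.36 RPKM to 107 ± 30.4 RPKM, and within that group it was lowest, at 71.6 RPKM, in replicate 1, the library with the lowest endothelial sum. The part of endothelial cells in this rise was not tested. The target Ankrd37 was at 11.5, 15.7 and 16.5 RPKM at day 14 after bleomycin and at 0.258 to 0.869 RPKM elsewhere, and it entered the tested set through that group alone. The target Bnip3 (1.15 ± 0.11) rose after bleomycin while Adm (-2.34 ± 0.22) and P4ha1 (-0.78 ± 0.12) fell. Of 15 other regulators, 5 rose and 5 fell after bleomycin and 4 rose and 3 fell after pneumonectomy (66.7% and 46.7% called). Myc, a transcription factor of growth, was at 20.7 and 13.3 RPKM in sham, 43.7, 39.5 and 32.4 RPKM after pneumonectomy and 7.18, 6.27 and 6.45 RPKM at day 14 after bleomycin, a rise of 1.43 ± 0.29 and a fall of 1.55 ± 0.29, with bleomycin 2.98 ± 0.26 below pneumonectomy (adjusted p = 1.32e-06). Mycn was at 0.883, 1.00 and 1.22 RPKM at day 14 after bleomycin and at 0.0675 to 0.237 RPKM elsewhere, and it too entered the tested set through that group alone.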

How the data were processed

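RNA sequencing of 13 mouse lung fibroblast libraries was deposited by the authors as RPKM for 43346 genes, on mm10 per the submitters' processing notes. Which aligner, counter and annotation they used is not given in the sources used here. All value columns were used (0 left out). The tested set was the 12938 genes that reached 1 RPKM in 2 libraries or more, 29 members among them. RPKM were scaled by trimmed mean of M-values (30% of ratios and 5% of levels trimmed), 0.1 was added before log2, and a model with a mean per group over all 13 libraries was fitted with limma 3.58.1 (R 4.3.3, empirical Bayes, trend and robust), tested on simulated data first. In each of 5 comparisons p-values were two-sided, adjusted by Benjamini-Hochberg across the whole tested set and called at 0.05. Changes of low genes are understated by the added 0.1. With 2 sham libraries, sham is assumed to vary like the other groups. The members and lists were chosen with earlier results of these data known. All members are accounted for, and of other lists at most 3 called genes were named per direction and comparison, those of largest change, with defining markers and Xist and Ddx3y beside them. Alternatives were no scaling, upper-quartile scaling, a pseudocount of 1, no filter, the compared groups alone, a replicate block and leaving out each library. Depth was inferred from the smallest RPKM steps and GENCODE M21 lengths, with 81.1% to 84.2% of low values whole reads within 0.02, and covers counting error only.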

Additional observations from a re-analysis of the deposited data

Results flagged for a closer look

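The change after bleomycin differed between day 14 and day 30 in 22 of the 29 tested members, by the direct comparison of the 2 times (limma, adjusted p below 0.05). Of these, 15 were lower and 7 higher at day 30. They include Pdk1, which entered the tested set through the day 14 group alone. All genes together gave 59.6%, and the day 30 libraries also differ from day 14 in Xist and Y-linked genes. No library of the day 30 group stood out by Dixon's criterion in any of the 31 members (0 of 31, where chance gives about 1 in 20).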

How the results depend on the processing

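Among the member counts, those of pneumonectomy and of day 30 against sham moved by over 1.5 times. The pneumonectomy count of 13 was 8 on RPKM as deposited, and 7 to 11 when each library was left out, lowest without sham replicate 2. The day 30 count of 9 against sham was 1 with the replicate block, where 369 of all genes (2.89%) were called against 3731 without it, and 3 to 12 when each library was left out, lowest without sham replicate 2 and highest without day 30 replicate 1. On RPKM as deposited it was 13. The block used the numbers of the sham and bleomycin libraries. Same-numbered libraries correlated at -0.127 to 0.136 in their deviations, so the numbers are not shown to pair them. With the block 21 members were called at day 14 against sham and 21 at day 30 against day 14. Leaving out each library gave 21 to 23 calls for day 14 bleomycin against sham, 22 to 25 against pneumonectomy and 21 to 22 for day 30 against day 14. On RPKM as deposited 3 changes between day 14 bleomycin and pneumonectomy turned from lower to higher after bleomycin: Pdk2 (0.0106, adjusted p = 0.943), Pdha1 (0.0764, adjusted p = 0.241) and Mpc1 (0.214, adjusted p = 0.0323). The median of all genes moved to 0.47 there. Under every alternative run, 19 of 24, 7 of 13, 18 of 25, 20 of 22 and 1 of 9 calls remained, for day 14 bleomycin and pneumonectomy against sham, bleomycin against pneumonectomy, day 30 against day 14 and day 30 against sham. Pdk1 is among the remaining calls in each comparison with day 14 bleomycin. It entered the tested set through that group alone, so its calls carry no weight in these counts. The upper-quartile scale moved the median of all genes to -0.12 for pneumonectomy against sham and left 9 members called. Leaving out a library leaves too few splits for any paralog share to be called, so the 0 calls there say nothing. The cause of these shifts was not tested.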
